A study of Rattus norvegicus with 13 samples.

Results

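Cholecystokinin, neurotensin, galanin and the bombesin-like peptides are neuropeptides that act on feeding, arousal and hormone release. Described here are 9 of their genes, chosen by name: the peptide precursors Cck, Nts, Gal, Grp and Nmb and the receptors Cckbr, Ntsr1, Ntsr2 and Galr1. All 9 were among the 17366 rows of the table, and none was at 0 in any rat. The study sequenced RNA from whole hypothalami of 13 rats, 7 fed standard chow (0.30% fructose) and 6 fed a diet of 55% fructose. The diets began on postnatal day 25, when the rats were housed in pairs. They were fasted overnight from day 79 and killed on day 80, 1 h after either glucose (2 g per kg) or saline was injected into the abdomen. The labels do not say which of the 13 rats received glucose, and give no sex, strain, cage mate or batch.

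Each peptide is cut from a longer precursor, stored in dense-core vesicles and released beside a fast transmitter. CCK, abundant in cortex and thalamus and also made in hypothalamic nuclei and in midbrain dopamine neurons, is a satiety signal in the gut, and its brain receptor is mainly the CCK-B receptor. Neurotensin is made by neurons of the lateral hypothalamus, where it is found together with galanin in many cells, and acts on dopamine neurons through Ntsr1. Galanin inhibits neurons through Galr1, which couples to inhibitory G proteins, whereas the CCK-B and neurotensin receptors couple to Gq. GRP and neuromedin B are the mammalian relatives of the frog peptide bombesin.

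Levels are FPKM, fragments scaled to transcript length and to the mapped fragments of the library, so that levels of different genes can be set side by side. Total FPKM per rat lay between 556902 and 608058. Depth in reads is unknown, and the spacing of low values gave a rough worth of 1 read between 0.867 and 1.25 times that in chow replicate 1. Of the 15 hypothalamic markers measured, 13 reached the filter, and their summed level was 4093 to 9527 FPKM on chow and 1588 to 7004 on fructose. Most of it was Pmch, the precursor of melanin-concentrating hormone, at 3607 to 7136 FPKM on chow and 1345 to 5669 on fructose. Other markers were low or uneven: Rax and Six6, transcription factors of the developing hypothalamus, averaged under the filter, Agrp, a hunger peptide, stood at 0.72 ± 0.56 FPKM on chow, and Avp, the precursor of vasopressin, ranged from 0.45 to 601 FPKM over all rats. Limma called 0 of the 13, and 1, Pmch, had an unadjusted p under 0.05. Markers of neighbouring tissue did differ. Of 20 thalamus genes 14 were called lower and 1 higher on fructose, with a summed level of 842 to 1921 FPKM on chow and 666 to 1233 on fructose. Of 16 tested midbrain dopamine neuron genes 15 were called higher (summed level 118 to 161 FPKM on chow, 274 to 718 on fructose). The genes of both lists were partly known from earlier results of these data, so these counts are no independent test. In bulk tissue, fewer cells of a type and less RNA per cell cannot be told apart.

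The promoter sequences of Nts and Gal are shown because these peptides share neurons and their RNA moved together in the fructose rats (below), and that of Ntsr1 because it was the gene that passed the test of diet. Each is the 250 bases before the RefSeq gene start of the assembly GRCr8, written 5′ to 3′ along the gene. Capitals mark matches to the AP-1 site TGANTCA, the core of a cyclic AMP response element, TGACG, which reads CGTCA on the opposite strand, and the TATA box TATAAA. All were searched on both strands, and the matches shown do not overlap each other.
Nts, chr7:39460889-39461138, minus strand: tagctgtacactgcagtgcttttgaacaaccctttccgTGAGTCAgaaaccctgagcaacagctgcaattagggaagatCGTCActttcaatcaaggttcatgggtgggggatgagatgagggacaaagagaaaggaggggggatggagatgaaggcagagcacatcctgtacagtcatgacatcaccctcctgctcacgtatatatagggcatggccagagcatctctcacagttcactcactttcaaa
Gal, chr1:210084573-210084822, minus strand: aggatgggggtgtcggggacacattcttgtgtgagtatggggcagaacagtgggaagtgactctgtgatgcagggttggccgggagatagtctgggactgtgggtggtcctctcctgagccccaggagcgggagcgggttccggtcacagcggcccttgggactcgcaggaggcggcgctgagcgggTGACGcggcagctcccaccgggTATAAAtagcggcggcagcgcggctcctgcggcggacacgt
Ntsr1, chr3:187983528-187983777, plus strand: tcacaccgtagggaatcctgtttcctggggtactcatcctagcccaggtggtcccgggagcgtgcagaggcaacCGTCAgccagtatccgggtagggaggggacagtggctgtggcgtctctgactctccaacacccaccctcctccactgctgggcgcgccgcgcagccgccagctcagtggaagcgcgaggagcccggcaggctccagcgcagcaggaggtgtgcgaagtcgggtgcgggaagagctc
The Nts window held 1 AP-1 match, at -212 to -206 from the start, and 1 TGACG match. The Gal window held 1 TGACG match and 1 TATAAA, at -41 to -36, and the Ntsr1 window held 1 TGACG match alone. Of 33469 rat promoter windows of this length, 6.34% held the AP-1 letters, 18.2% the TGACG letters and 12.9% the TATA letters. A match is a description of letters and not of binding. Of the 9 genes 8 had a promoter sequence to draw on, and Cck had none.

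Cck was the most abundant of the 9 genes, with a mean over all rats at or above that of 97.5% of the 11837 genes tested (mean of at least 0.5 FPKM). On chow the levels fell in the order Cck (433 ± 191 FPKM, SD, n = 7), Ntsr2 (105 ± 10.5), Gal (58.1 ± 14.7), Nts (30.5 ± 5.92), Ntsr1 (6.19 ± 1.35), Grp (6.18 ± 2.25), Cckbr (3.29 ± 1.21), Galr1 (2.46 ± 0.83) and Nmb (1.43 ± 0.50). Cck, Ntsr2, Gal, Nts and Ntsr1 kept this order on fructose, but Cck exceeded Ntsr2, its neighbour in the order, in 7 of 7 chow rats and in 3 of 6 fructose rats. Ntsr1 and Grp were not separated on chow, where Ntsr1 was higher in 3 of 7 rats. Nmb and Galr1 were not separated on fructose, where Nmb was higher in 3 of 6 rats. The ranges of Gal and Nts overlapped, although Gal was higher in 7 of 7 chow rats and 5 of 6 fructose rats.

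**Figure D1:**
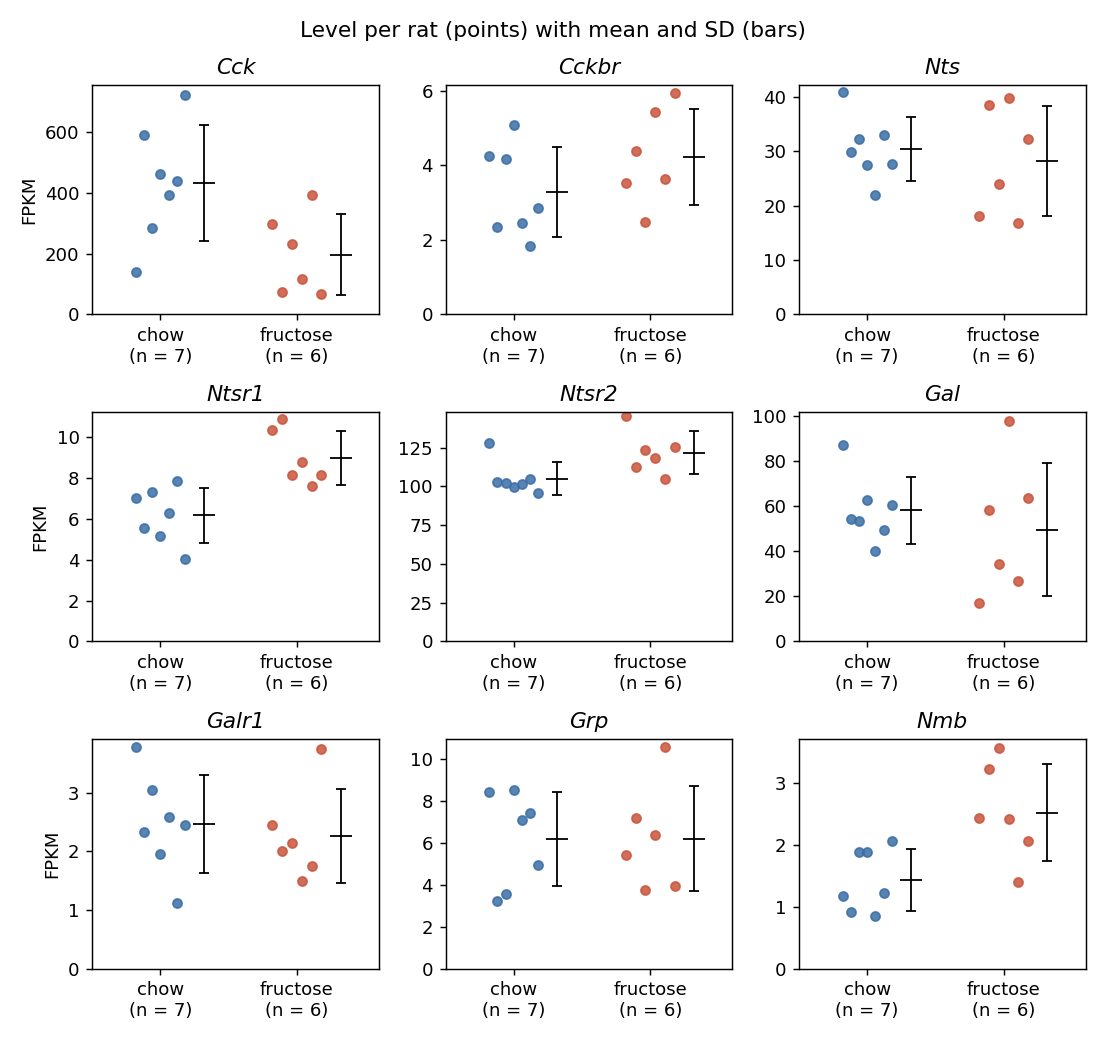
FPKM of each of the 9 genes (y axis, from 0) in each chow rat (blue, n = 7) and each fructose rat (red, n = 6), with the mean and SD beside the points. The diets overlap for every gene; for Ntsr1 and for Nmb 5 of 6 fructose rats lie above all chow rats.

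The diets were compared first. By limma, with Benjamini-Hochberg adjustment over all genes tested, 1 of the 9 genes passed an adjusted p under 0.05, and 8 did not. Over all genes tested 3.94% were called, 1.66% higher and 2.27% lower on fructose. At an unadjusted p under 0.05 stood 4 members, against 19.2% of all genes. In 0 members were the diets free of overlap (1.61% of all genes, 0.879% higher and 0.727% lower on fructose). The log2 difference was above 0 for 5 members and for 50.3% of all genes. The median log2 difference was 0.0081 over the members and 0.00085 over all genes tested.

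Among the receptors, Ntsr1, the high-affinity neurotensin receptor, rose on fructose. On chow its lowest, median and highest values were 4.04, 6.30 and 7.87 FPKM, and on fructose 7.63, 8.48 and 10.9 FPKM. Of the fructose rats 5 of 6 lay above every chow rat, and the sixth lay just under the highest chow rat. The difference was 0.52 ± 0.14 on the log2 scale (SE, limma adjusted p = 0.0452, exact permutation p = 0.0035). The call did not hold with all 13 rats by the exact permutation test after adjustment (adjusted p = 0.104), which called 0 of the 11837 genes tested. Nor did it hold by limma with no filter on low values (adjusted p = 0.0617) or with quantile normalization (adjusted p = 0.0545). The call lay near the threshold and changed with 1 rat left out. It was kept without chow replicate 1 or 6 or fructose replicate 5. It was lost without chow replicate 2 (limma adjusted p = 0.0975), 3 (0.0502), 4 (0.0945), 5 (0.0748) or 7 (0.0754), or fructose replicate 1 (0.0735), 2 (0.106), 3 (0.0576), 4 (0.0919) or 6 (0.0841). In all 13 of these fits Ntsr1 was higher on fructose, by 0.43 to 0.58.

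Markers of midbrain dopamine neurons, cells known to carry Ntsr1, were higher on fructose as well. The mean log2 level of the dopamine neuron list was 2.04 ± 0.25 on chow and 3.88 ± 0.45 on fructose (SD), and its exact permutation p of 0.000583 (0.0027 after adjustment over 7 marker lists) is the smallest this design can give. The genes of this list were partly known from earlier results of these data, so its p is a description and no independent test. Slc6a3, the dopamine transporter, stood at 1.36 ± 2.04 FPKM on chow and 63.4 ± 33.6 on fructose. With the dopamine neuron level as a covariate the Ntsr1 difference was -0.28 ± 0.35 (limma adjusted p = 0.897), in a fit where level and diet cannot be told apart, since the level did not overlap between diets. In that fit limma called 0 of 11837 genes, and 844 had an unadjusted p under 0.05. With the level of Prkcd as a covariate it was 0.27 ± 0.17. Within a diet, r between Ntsr1 and the dopamine neuron level was 0.711 over chow rats (exact permutation p = 0.0730) and 0.608 over fructose rats (exact permutation p = 0.218). Other marker lists came closer to Ntsr1. For the pituitary list r was 0.774 over chow rats (exact permutation p = 0.0375) and -0.311 over fructose rats. For the cortex and hippocampus list r was -0.577 over chow rats and -0.854 over fructose rats (exact permutation p = 0.0306).

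Ntsr2, the low-affinity neurotensin receptor known chiefly from astrocytes, was the least variable of the 9 genes. It stood at 95.9, 102 and 128 FPKM on chow (lowest, median, highest) and at 105, 121 and 145 FPKM on fructose. Every fructose rat was above the chow mean, but only 1 was above the highest chow rat, chow replicate 1. The difference was 0.21 ± 0.076 (limma adjusted p = 0.135), and it passed without chow replicate 1 (adjusted p = 0.0268). Cckbr, the CCK-B receptor, had a difference of 0.34 ± 0.22 (adjusted p = 0.437), and Galr1 one of -0.090 ± 0.21 (adjusted p = 0.868).

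Among the peptides, Cck showed the widest difference in level without passing the test. Its lowest, median and highest values were 140, 438 and 722 FPKM on chow and 65.4, 175 and 392 FPKM on fructose. All 6 fructose rats lay below the chow mean, and 3 lay below every chow rat; the lowest chow rat, replicate 1, lay inside the fructose range. The difference was -1.30 ± 0.44 (limma adjusted p = 0.117, exact permutation p = 0.0326). It passed without chow replicate 1 (-1.54 ± 0.41, limma adjusted p = 0.0348) and without fructose replicate 5 (-1.56 ± 0.42, adjusted p = 0.0495). The spread of Cck between rats of the same diet (SD 0.93 on the log2 scale) was at or above that of 99.7% of the genes tested, whose median was 0.16.

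Nts did not pass (-0.17 ± 0.20, limma adjusted p = 0.722) and neither did Gal (-0.42 ± 0.32, adjusted p = 0.522). Nts stood at 21.97, 29.96 and 41.0 FPKM on chow and at 16.7, 28.1 and 39.9 FPKM on fructose. Gal stood at 39.9, 54.2 and 86.9 FPKM on chow and at 17.1, 46.4 and 97.7 FPKM on fructose. Both were more widely spread on fructose: the coefficient of variation of Gal was 25.4% on chow and 59.7% on fructose, and that of Nts 19.4% and 35.8%. These spreads were not tested against each other.

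Of the bombesin-like peptides, Nmb stood at 0.85, 1.22 and 2.06 FPKM on chow and at 1.40, 2.42 and 3.56 FPKM on fructose. All but 1 fructose rat, replicate 5, lay above every chow rat, although replicate 6 did so narrowly, at 2.064 FPKM against 2.062 in chow replicate 7. Its difference of 0.65 ± 0.20 did not pass (limma adjusted p = 0.0805, exact permutation p = 0.0157), but did without fructose replicate 5 (0.77 ± 0.19, limma adjusted p = 0.0298). Grp stood at 6.18 ± 2.25 FPKM on chow and 6.21 ± 2.52 on fructose, a difference of 0.0081 ± 0.26 (adjusted p = 0.993), and its sign changed with the scaling of the libraries.

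Cck was next set beside Prkcd, protein kinase C delta, which is strongly expressed in the thalamus. Prkcd stood at 53.6, 202 and 372 FPKM on chow and 7.83, 48.3 and 142 FPKM on fructose (-2.32 ± 0.60, limma adjusted p = 0.0452). Over the 7 chow rats Cck and Prkcd on the log2(FPKM + 0.5) scale had a Pearson's r of 0.948 (exact permutation p = 0.0042) and a Spearman's rho of 0.786 (exact permutation p = 0.0480). Chow replicate 1 was lowest for both genes, with 140 FPKM of Cck and 53.6 of Prkcd. Without it r was 0.819 (exact permutation p = 0.0458), and without chow replicates 1 and 2, the rats farthest from the median of Prkcd, it was 0.807 (n = 5).

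Over the 6 fructose rats r was 0.933 (exact permutation p = 0.0222) and rho 0.829 (exact permutation p = 0.0583). Without fructose replicates 2 and 5, the farthest from the median of Prkcd, r was 0.908 (n = 4). The fructose rats left a gap in Prkcd between 21.1 and 75.5 FPKM, and the 3 rats on either side are too few for a test, so r over fructose rats rests largely on the step across this gap. Replicates 1, 3 and 5 had 81.4, 75.5 and 142 FPKM of Prkcd and 298, 232 and 392 FPKM of Cck, in the same order. Replicates 2, 4 and 6 had 7.83, 18.7 and 21.1 FPKM of Prkcd and 74.4, 118 and 65.4 FPKM of Cck, and there the order was not the same. Cck followed Prkcd in both diets by the unadjusted exact test of r. Over the family of 18 relations, each of the 9 genes with Prkcd in each diet, 0 passed after Benjamini-Hochberg adjustment (adjusted permutation p = 0.0750 for Cck on chow and 0.10 on fructose) and 4 had an unadjusted exact p under 0.05.

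**Figure D2:**
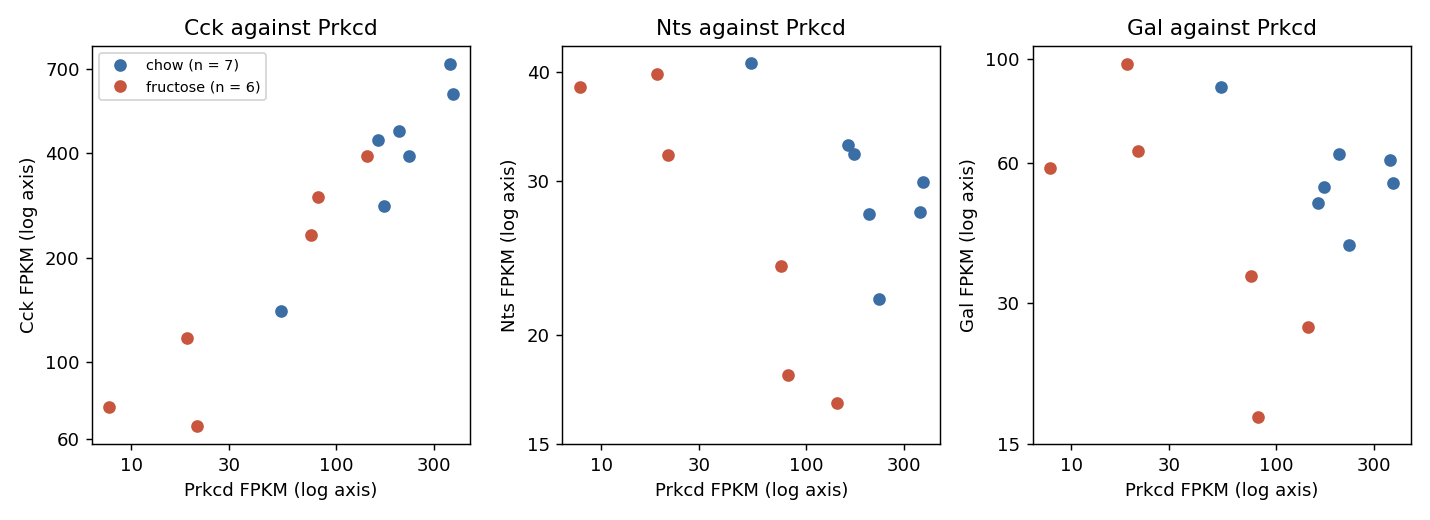
FPKM of Cck, Nts and Gal (y axes, log) against FPKM of Prkcd (x axes, log) in each chow rat (blue, n = 7) and fructose rat (red, n = 6). Cck climbs with Prkcd within each diet (r = 0.948 and 0.933), while Nts is high in the rats with little Prkcd; the 3 fructose rats with the least Prkcd hold 32.2 to 39.9 FPKM of Nts.

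The thalamus list level, computed without Prkcd, ranked the fructose rats in the same order as Prkcd. With this level in place of Prkcd, r with Cck was 0.934 over chow rats (exact permutation p = 0.0034) and 0.930 over fructose rats (exact permutation p = 0.0236). The list was chosen with earlier results of these data known, so these values are no independent support for the relation. By likeness over the 13 rats after each diet's mean was taken away, Prkcd ranked 34 of 10024 genes (r = 0.934), and 86 genes had an r of at least 0.9 with Cck. The genes most like Cck were Opn3 (r = 0.990), encoding encephalopsin, Nrn1 (0.978), encoding the neurite growth protein neuritin, Smpx (0.977), Sptssb (0.972), a subunit of serine palmitoyltransferase, and Tmem41a (0.969). These values are given as a description, with no p. With log2 Prkcd as a covariate in the limma fit, the diet difference of Cck was 0.30 ± 0.23 (adjusted p = 0.824) in place of -1.30, and with the thalamus level it was 0.39 ± 0.24. With Prkcd in the fit and each rat left out in turn it stayed between 0.17 and 0.39.

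Nts ran the other way. Over the fructose rats its r with Prkcd was -0.939 (exact permutation p = 0.0139) and rho -0.943 (exact permutation p = 0.0167), and without replicates 2 and 5 r was -0.933 (n = 4). Over chow rats r was -0.709 (exact permutation p = 0.0903), and -0.474 without replicates 1 and 2. The adjusted p was 0.10 on fructose and 0.271 on chow by permutation. Fructose replicates 2, 4 and 6, low in Prkcd, held 38.5, 39.9 and 32.2 FPKM of Nts and 58.4, 97.7 and 63.4 FPKM of Gal. Replicates 1, 3 and 5 held 18.01, 24.0 and 16.7 FPKM of Nts and 17.1, 34.3 and 26.7 FPKM of Gal. The rats on either side of the gap in Prkcd did not overlap for either peptide. This split was drawn after the values were seen, and how many other genes separate at it was not counted. The remaining relation with an unadjusted exact permutation p under 0.05 was Ntsr2 on chow (r = -0.899, p = 0.0214), where rho was -0.607 (exact permutation p = 0.167). Over the fructose rats r was 0.130 for Ntsr2 (exact permutation p = 0.838).

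With log2 Prkcd as a covariate, Nts was lower on fructose by limma (-0.83 ± 0.15, adjusted p = 0.0254), as it was with the thalamus level (-0.86 ± 0.16, adjusted p = 0.0420). In the fit with Prkcd 0.279% of all genes were called, 33 in number, and in that with the thalamus level 0.245%; Nts was the member called in each. The Nts call with Prkcd was lost without chow replicate 1 (adjusted p = 0.0920) or 3 (0.0651) or fructose replicate 1 (0.116) or 5 (0.163), with a difference between -0.89 and -0.74 over the 13 fits. Gal stood at -1.31 ± 0.31 with Prkcd (adjusted p = 0.123). In these fits diet is read at equal Prkcd, which itself differed between diets.

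**Figure D3:**
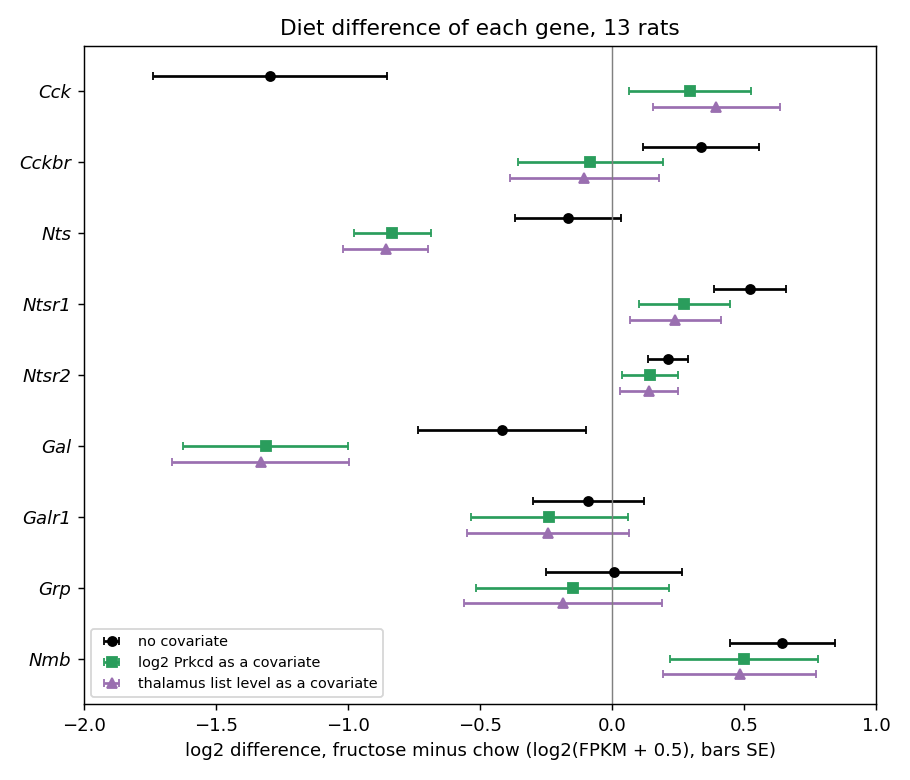
Log2 difference between fructose and chow for each of the 9 genes (x axis, log2(FPKM + 0.5), limma, bars SE, 13 rats) with no covariate (black), with log2 Prkcd (green) and with the thalamus list level (purple) in the fit. Cck moves from -1.30 to 0.30 and 0.39, and Nts from -0.17 to -0.83 and -0.86.

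Nts and Gal moved together over the fructose rats (r = 0.931, exact permutation p = 0.0139, rho = 0.886, exact permutation p = 0.0333, r = 0.885 without replicates 1 and 5). As for Cck, this r rests largely on the step across the gap in Prkcd. Among the rats on either side of the gap, Nts and Gal did not keep the same order. Over the chow rats r was 0.759 (exact permutation p = 0.0556) and rho 0.286, and without chow replicates 1 and 5, the farthest from the median of Nts, r turned to -0.965 (n = 5). Chow replicate 1 was highest for both, at 41.0 and 86.9 FPKM. Among the 72 relations between members, 36 in each diet, 0 passed after adjustment and 3 had an unadjusted exact permutation p under 0.05; the other two were Ntsr2 with Cck on chow (r = -0.888, 0.023 without chow replicates 1 and 7) and Nts with Cck on fructose (r = -0.900).

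The genes most like Nts were Pmch (r = 0.974 over 13 rats after diet means) and Nucb2 (0.955), the precursor of nesfatin, both of which are known from the lateral hypothalamus. Those most like Gal were Nucb2 (0.936) and Pdyn (0.936), the precursor of dynorphin. The hypothalamus list level had an r of 0.969 with Nts and 0.948 with Gal over the fructose rats (exact permutation p = 0.0111 and 0.0083), and of -0.920 with Cck (exact permutation p = 0.0375). Over chow rats the same r was 0.565 with Nts, 0.869 with Gal and -0.545 with Cck. With Cckbr it was 0.910 over chow rats (exact permutation p = 0.0079) and 0.772 over fructose rats (exact permutation p = 0.0903). Of the 126 relations between members and list levels 0 passed after adjustment and 16 had an unadjusted exact permutation p under 0.05.

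**Figure D4:**
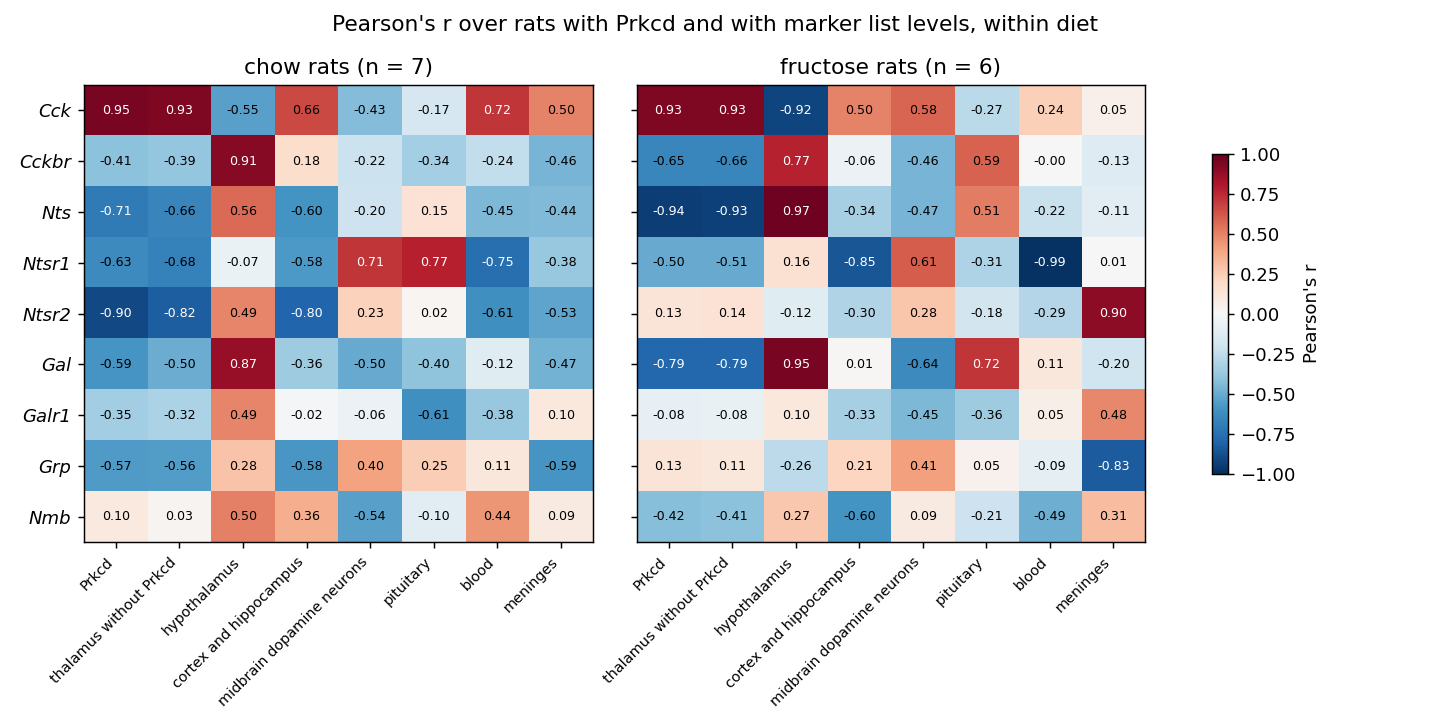
Pearson's r over rats (colour and number, -1 to 1) of each of the 9 genes (rows) with Prkcd and with the mean log2 level of 7 marker lists (columns), within chow (left, n = 7) and within fructose (right, n = 6). Cck is at 0.93 or above with the thalamus columns in both diets, and Nts, Gal and Cckbr are highest with the hypothalamus column on fructose.

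The remaining genes had other neighbours by the same measure. Cckbr was most like Meis2 (r = 0.848), a homeobox transcription factor, and Avp (0.844). Ntsr1 was most like Tmem192 (0.922) and Faf1 (0.915), and Ntsr2 like Usp9x (0.935) and Fzd2 (0.920), a receptor for Wnt proteins. Galr1 was most like Usp45 (0.945) and Rabgap1l (0.925), Grp like Mettl10 (0.906) and Hspd1 (0.843), a mitochondrial chaperonin, and Nmb like Ndufaf6 (0.825) and Sdr42e1 (0.812).

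Other genes of these systems were taken from lists. Of the other ligands, receptors and paralogs 5 of 9 could be tested, and limma called 0, with 1 at an unadjusted p under 0.05. That gene was Nmbr, the neuromedin B receptor, at 3.58 ± 1.44 FPKM on chow and 1.64 ± 1.40 on fructose (-1.03 ± 0.31, limma adjusted p = 0.0741). Cckar, the CCK-A receptor, stood at 4.20 ± 1.21 and 3.81 ± 0.99 FPKM, and Sort1, sortilin, which also binds neurotensin, at 104 ± 7.50 and 95.1 ± 12.7 FPKM. Grpr, the receptor of GRP, was under the filter at 0.15 ± 0.084 and 0.16 ± 0.15 FPKM.

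Of 21 genes that couple these receptors to the cell 6 fell (2.27% of all genes tested), 0 rose (1.66% of all) and 15 did not pass (list median -0.12). They included Rgs4, a regulator that ends G protein signals (-1.22 ± 0.24, limma adjusted p = 0.0205), and the potassium channel subunits Kcnj3 (-0.60 ± 0.15) and Kcnj9 (-0.63 ± 0.15). Of 12 genes of precursor processing and peptide breakdown 1 fell, Pcsk2, prohormone convertase 2, from 130 ± 31.8 to 85.01 ± 13.8 FPKM (-0.59 ± 0.14, adjusted p = 0.0389). Of 19 tested other hypothalamic neuropeptides 2 rose (1.66% of all) and 17 did not pass. The row used for Npy, also on this list, was at 0 in every rat and was not tested. The peptide genes that rose were Adcyap1, the precursor of PACAP (1.02 ± 0.24, limma adjusted p = 0.0344), and Tac1, that of substance P (0.65 ± 0.17, adjusted p = 0.0464).

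Of the other marker lists, 1 of 7 tested genes of cortex and hippocampus was called and 4 had an unadjusted p under 0.05, in both directions. The called gene was Neurod2, at 0.66 ± 0.40 FPKM on chow and 1.54 ± 0.44 on fructose, whereas the most abundant, Slc17a7, a glutamate transporter, stood at 37.9 ± 17.9 and 15.1 ± 11.1 FPKM (-1.38 ± 0.48, limma adjusted p = 0.118). The list's level was 1.84 ± 0.16 on chow and 1.75 ± 0.29 on fructose, with an exact permutation p of 0.498. Its summed level was 25.7 to 91.2 FPKM on chow and 21.2 to 60.8 on fructose. Of 4 tested pituitary genes limma called 0, and 0 had an unadjusted p under 0.05. The list's summed level was 3.12 to 11.2 FPKM on chow and 3.96 to 20.9 on fructose, and Prl, Fshb and Pou1f1 were listed at 0. The rows used for Npy and for the meninges genes Col1a2 and Ogn were also at 0. In all, 2954 rows were at 0 in every rat, so a 0 need not mean absent RNA. All 3 tested blood genes and 5 of 6 tested genes of the meninges were higher, with summed levels of 175 to 422 and 20.7 to 33.5 FPKM on chow against 352 to 1530 and 29.6 to 78.3 FPKM on fructose. Over the fructose rats Ntsr1 was lowest where the blood level was highest (r = -0.990, exact permutation p = 0.0014, adjusted p = 0.113, and r = -0.988 without replicates 1 and 2). There rho was -1 (exact permutation p = 0.0028, adjusted p = 0.30). These unadjusted p of r and rho are the smallest that 720 pairings of 6 rats can give. Neither could pass alone in a family of 126 relations. Over chow rats r was -0.753 (exact permutation p = 0.0452, -0.126 without replicates 3 and 7). The part of blood and meninges in the Ntsr1 difference was not tested.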

How the data were processed

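RNA of 13 rat hypothalami was measured, 7 on chow and 6 on fructose, grouped by the diet label. Replicate numbers follow accession order and serve only as names. The authors deposited a single table of FPKM in which each rat has a column. Of tools, the submitters' processing notes list Cufflinks 2.1.1, Cuffdiff and STAR 2.3.0e, and as build rn5, with no settings. No read counts are used here, and relative depth was estimated roughly from the spacing of low FPKM. After adding a pseudocount of 0.5, the deposited FPKM were log2 transformed. The 11837 genes averaging 0.5 FPKM or more over the rats, all 9 members among them, were tested with limma 3.58.1 in R 4.3.3 (intensity trend, two-sided, Benjamini-Hochberg over all tested genes). Fold changes on this scale understate those of low genes such as Nmb.

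Each gene was also tested by an exact two-sided permutation of the mean difference over 1716 splits. Relations within a diet used Pearson's r and Spearman's rho with exact two-sided permutation over 5040 or 720 pairings (Python 3.11.15), Benjamini-Hochberg adjusted over each family. With 720 pairings the smallest exact permutation p is 0.0014 for r and 0.0028 for rho. A fructose relation alone therefore cannot pass in the families of 72 and 126. P-values set differences and relations against the variation between these rats, and whether cage mates were independent is unknown. Likeness was r after subtracting diet means, among genes averaging 2 FPKM or more that have a named symbol; the 5 genes most like Cck and the 2 most like each other member are named, and, of the lists of these peptide systems and other neuropeptides, the genes that passed, at most 4 a list (1 such gene is not reported here). The same rule covered the marker lists, but of their genes that passed, only Prkcd, Slc6a3 and Neurod2 are named. List genes that did not pass, Pmch among them, were named after their values were seen. The members, the lists and the relation with Prkcd were chosen with earlier results of these data known. Relations with list levels were computed after the data were seen. Promoters are RefSeq sequences of GRCr8, a different build from the files, used for their letters alone. The limma procedure was tested on simulated data. In GRCr8, 3 members (Cckbr, Ntsr1 and Nmb) each overlap 1 other gene model, and whether counting used strand is not given, so their reads could include those of the other. The alternatives were other pseudocounts, filters and scalings, array weights, the permutation test, 3 covariates and leaving out each rat.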

Additional observations from a re-analysis of the deposited data

Results flagged for a closer look

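Among 20 groups of rats, the 9 genes and Prkcd in each diet, 1 value stood apart from its group by Dixon's test: Ntsr2 was highest in chow replicate 1, at 128 FPKM, with the other chow rats between 95.9 and 104 FPKM. Chance flags about 1 in 20 such groups. The same rat held the lowest Cck and Prkcd and the highest Nts and Gal among the chow rats.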

How the results depend on the processing

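The number of members called was 1 in all rats (Ntsr1) and 0 with no filter on low values, with quantile normalization, with the dopamine neuron level as a covariate or by the exact permutation test, in which 4, 4, 0 and 4 members had an unadjusted p under 0.05. It was 3 with array weights and 0 to 3 with 1 rat left out. Over all genes tested 3.94% were called, and the number called was 308 with no filter, 1019 with array weights, 33 with Prkcd, 29 with the thalamus level, 0 with the dopamine neuron level (844 at an unadjusted limma p under 0.05), 0 by the exact permutation test (2223 unadjusted) and 83 to 857 with 1 rat left out. Ntsr1 (0.52) stood at 0.52 with no filter (limma adjusted p = 0.0617) and by permutation (adjusted p = 0.104), 0.50 with quantile normalization (0.0545), 0.27 with Prkcd, 0.24 with the thalamus level, -0.28 with the dopamine neuron level and 0.43 to 0.58 with 1 rat left out. With array weights Cck (-1.44, limma adjusted p = 0.0351) and Ntsr2 (0.23, 0.0326) passed. With Prkcd and with the thalamus level, Cck turned to 0.30 and 0.39, Cckbr to -0.082 and -0.11 and Grp to -0.15 and -0.18, and Nts passed at -0.83 and -0.86. With the dopamine neuron level, Cck stood at -2.52, Cckbr at 1.11, Ntsr2 at 0.016, Nts at 0.70, Gal at 1.68, Galr1 at 0.47 and Grp at -1.07. Grp was -0.031 with quantile normalization and -0.044 with array weights. With 1 rat left out the differences were -1.56 to -1.04 for Cck, 0.16 to 0.26 for Ntsr2, 0.55 to 0.77 for Nmb, -0.23 to 0.0070 for Galr1 and -0.15 to 0.12 for Grp. With Prkcd kept as a covariate they were -0.89 to -0.74 for Nts and 0.17 to 0.39 for Cck, an alternative chosen after the data were seen. The relation of Cck with Prkcd over fructose rats was weaker by rank (rho = 0.829, exact permutation p = 0.0583). Over chow rats r was 0.819 to 0.970 with 1 rat left out. No r was computed with 1 fructose rat left out. No paired analysis was possible because the numbers of the rats pair nothing across diets. The causes of these changes were not tested. Depth in reads is unknown, which limits the low genes Nmb, Galr1 and Cckbr most.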
